A study of Mus musculus with 14 samples.

Results

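The genes of the xenobiotic-metabolizing enzyme families were followed across lungs of Mcemp1-/- and Mcemp1+/+ mice after chronic ovalbumin (OVA) or saline. Members were taken by name: protein-coding genes of the cytochrome P450 families Cyp1 to Cyp4, the glutathione S-transferase classes alpha, mu, omega, pi and theta, the flavin monooxygenases (Fmo), the UDP-glucuronosyltransferases (Ugt1 and Ugt2), the aldehyde oxidases (Aox), the Ces1 carboxylesterases and the Sult1 sulfotransferases, with a mean of at least 0.5 normalized counts over the 14 libraries. Cyp2f2, the main P450 of club cells, was left out. Of 24270 genes in the table, 82 carried such a name and 60 reached the mean; all 60 were among the 22828 genes tested. The mean over all libraries, which no comparison between groups enters, was the only measured value in this rule. The families themselves were chosen with earlier results of these data known. The members nearest above it were Cyp2t4 at 0.624, Ugt1a1 at 0.762 and Ces1b at 0.799, and the genes nearest below it were Cyp2c23 at 0.470, Cyp4a32 at 0.463 and Ugt2b34 at 0.375. Both Ugt2 genes that matched fell below it, so that family has no member.

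Lung RNA was sequenced in 4 libraries of OVA-challenged Mcemp1-/- (OVA KO) and 3 of saline-treated Mcemp1-/- (saline KO) mice. A further 4 libraries were of OVA-challenged Mcemp1+/+ (OVA WT) and 3 of saline-treated Mcemp1+/+ (saline WT) mice. All mice were C57BL/6 and 6 to 8 weeks old at the start. The knockout carries a frameshift deletion made by CRISPR-Cas9 in the first exon of Mcemp1, a membrane protein of mast cells. OVA mice were sensitized by injection into the peritoneum on days 1, 4 and 7 and, from 5 days after the last injection, were challenged through the nose once a week over 8 weeks, whereas control mice were given saline in place of OVA at each of these steps. Libraries are named by group and replicate, as in OVA KO 1, and values are normalized read counts as deposited.

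Enzymes of these families add or expose a polar group on foreign compounds (P450s, flavin monooxygenases, aldehyde oxidases and carboxylesterases), and then couple it to glutathione, glucuronic acid or sulfate (the transferases), which prepares the product for export. In the lung they are concentrated in club cells of the airway lining and, for some members, in alveolar type 2 cells and endothelium. Many are induced through the aryl hydrocarbon receptor (AhR), which acts on the xenobiotic response element, or through NRF2, which acts on the antioxidant response element.

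The promoters below are shown because of 2 results: Aox1 and Aox3 are neighbours that both fell after OVA in wild type, and Cyp1a1, Ces1g, Gsta2 and Aox1 were raised in 1 saline library. Each line holds the 250 bases before the RefSeq start of the gene, 5′ to 3′ on the gene's strand, in build GRCm38.p6, and capitals mark the core of the xenobiotic response element (GCGTG, searched on both strands, CACGC on the other).
Cyp1a1 (chr9:57697363-57697612, plus strand): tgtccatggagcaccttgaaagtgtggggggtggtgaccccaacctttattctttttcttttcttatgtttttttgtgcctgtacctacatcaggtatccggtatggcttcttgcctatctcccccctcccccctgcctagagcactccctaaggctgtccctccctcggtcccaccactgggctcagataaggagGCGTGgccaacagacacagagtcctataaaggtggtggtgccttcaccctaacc
Ces1g (chr8:93337210-93337459, minus strand): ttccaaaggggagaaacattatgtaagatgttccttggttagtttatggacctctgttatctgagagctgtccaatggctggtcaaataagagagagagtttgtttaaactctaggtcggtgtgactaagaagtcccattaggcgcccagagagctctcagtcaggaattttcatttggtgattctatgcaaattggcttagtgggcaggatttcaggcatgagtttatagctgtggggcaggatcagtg
Gsta2 (chr9:78347146-78347395, minus strand): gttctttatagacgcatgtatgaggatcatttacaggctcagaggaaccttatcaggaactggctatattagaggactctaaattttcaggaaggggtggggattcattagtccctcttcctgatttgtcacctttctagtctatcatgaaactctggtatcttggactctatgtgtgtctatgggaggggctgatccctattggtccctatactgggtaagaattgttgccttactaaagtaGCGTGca
Aox1 (chr1:58029719-58029968, plus strand): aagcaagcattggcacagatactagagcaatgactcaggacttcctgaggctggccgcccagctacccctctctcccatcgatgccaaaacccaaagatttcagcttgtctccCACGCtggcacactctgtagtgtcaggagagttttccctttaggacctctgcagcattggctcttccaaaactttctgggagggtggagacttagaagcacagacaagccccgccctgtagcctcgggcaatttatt
Aox3 (chr1:58112886-58113135, plus strand): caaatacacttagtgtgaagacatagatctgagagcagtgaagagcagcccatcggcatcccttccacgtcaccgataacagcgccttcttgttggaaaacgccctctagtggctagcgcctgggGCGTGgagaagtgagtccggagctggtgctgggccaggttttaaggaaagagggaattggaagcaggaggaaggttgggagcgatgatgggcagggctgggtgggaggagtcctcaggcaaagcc
The core lies 54 to 50 bases upstream of the start in Cyp1a1, 7 to 3 in Gsta2, 137 to 133 in Aox1 and 125 to 121 in Aox3, and these letters are not in the Ces1g window. Of the 60 members, 49 had a promoter in the RefSeq table, and 16 of these (32.7%) held the core, against 28.4% of 26734 promoters of the same length. The antioxidant response element (TGACNNNGC) was in 3 member promoters (6.12%, against 10.2% of all), the FOXA motif TGTTTAC in 1 (2.04%, against 3.1%) and the NKX2-1 motif CAAGTG in 5 (10.2%, against 11.5%), each searched on both strands. A match is a description of the letters, not a bound site. Of the 21 genes with a promoter that fell after OVA in wild type, 6 held the xenobiotic response core, as did 10 of the other 28 members.

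Depth was, if the lowest value of a library stands for 1 read, 57.2 to 67.1 M reads in OVA KO, 48.5 to 54.3 M in saline KO, 47.3 to 49.4 M in OVA WT and 51.6 to 63.8 M in saline WT, while 66.7% to 70.2% of low values were whole multiples of that value within a tolerance of 0.02. Mcemp1 read 3.73 to 4.88 in OVA KO and 3.499 to 4.98 in saline KO, against 11.5 to 20.1 in OVA WT and 9.84 to 11.95 in saline WT. The genotypes did not overlap, although reads outside the deleted bases are counted too. Defining lung markers were present in all libraries, with summed levels of 8 alveolar type 2 genes between 11762 and 21021 and of 7 club cell genes between 6142 and 39607. Liver genes (6) summed to 2.46 to 6.65. Saline WT 3 was the highest of the 14 libraries for 24 of the 60 members (40%), against 9.3% of all tested genes. OVA KO 3 and OVA WT 2 were rich in goblet cell genes (summed levels of 2283 and 1444, against 225 to 346 in the other OVA KO and 248 to 942 in the other OVA WT libraries). Values without saline WT 3, or without OVA KO 3 and OVA WT 2 together, are given for calls and counts that these libraries decide, and the joint omission was chosen after the values were seen. Labels do not state whether libraries came from separate animals, so the p-values cover the spread among these libraries alone.

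Mean normalized counts, which also grow with the length of a gene, spanned from 0.624 for Cyp2t4 to 774 for Fmo2 with a median of 11.3, and were at least 100 for 10 members. Per kilobase of exon (GENCODE M21), which allows genes to be compared, Ces1d was the most abundant at 200 over the 14 libraries, followed by Cyp4b1 at 148, Fmo2 at 138 and Gstm1 at 129, then Gsto1 at 60.5, Cyp2b10 at 57.1 and Fmo1 at 49.99. The summed level of the 60 members was 2895 to 3989 in OVA KO, against 3799 to 3887 in saline KO, and 2482 to 3081 in OVA WT, against 4019 to 4531 in saline WT. The sums did not overlap between OVA WT and saline WT, whereas OVA KO 3 and OVA KO 4 lay above every saline KO library and OVA KO 1 and OVA KO 2 below them. Abundant genes weigh most in these sums: Gsto1 read 481 in OVA KO 3 and Fmo2 read 1127 in OVA KO 4. In OVA KO 3 and OVA KO 4 the Ces1 members summed to 458 and 549, against 595 to 685 in saline KO. The mu-class transferases summed to 207 and 229 there, against 285 to 322 in saline KO.

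The comparison of OVA-challenged with saline-treated wild-type lungs shows the enzymes under repeated allergen with MCEMP1 present. After OVA 25 of the 60 members fell and 1 rose (Cyp4f18), among them the carboxylesterase Ces1g, the P450s Cyp2e1, Cyp2s1 and Cyp4f15 and the alpha-class transferase Gsta2. Calls are those with an adjusted p under 0.05 in limma (Benjamini-Hochberg over all 22828 genes), and by the same rule 7.45% of all genes were lower and 4.36% higher in OVA WT (1700 and 995 genes; with equal column totals, which move the median of all genes by -0.18, 4340 and 467). Log2 changes are on the log2(value + 0.502) scale, which understates the change of genes with low values. The median log2 change of the members was -0.55, against 0.01 over all genes tested, 54 of 60 were negative, and 16 of those that fell did so by at least 2-fold. The groups did not overlap for 29 members that were lower in OVA WT (12.6% of all genes) and for 1 that was higher (10.3% of all genes).

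**Figure D1:**
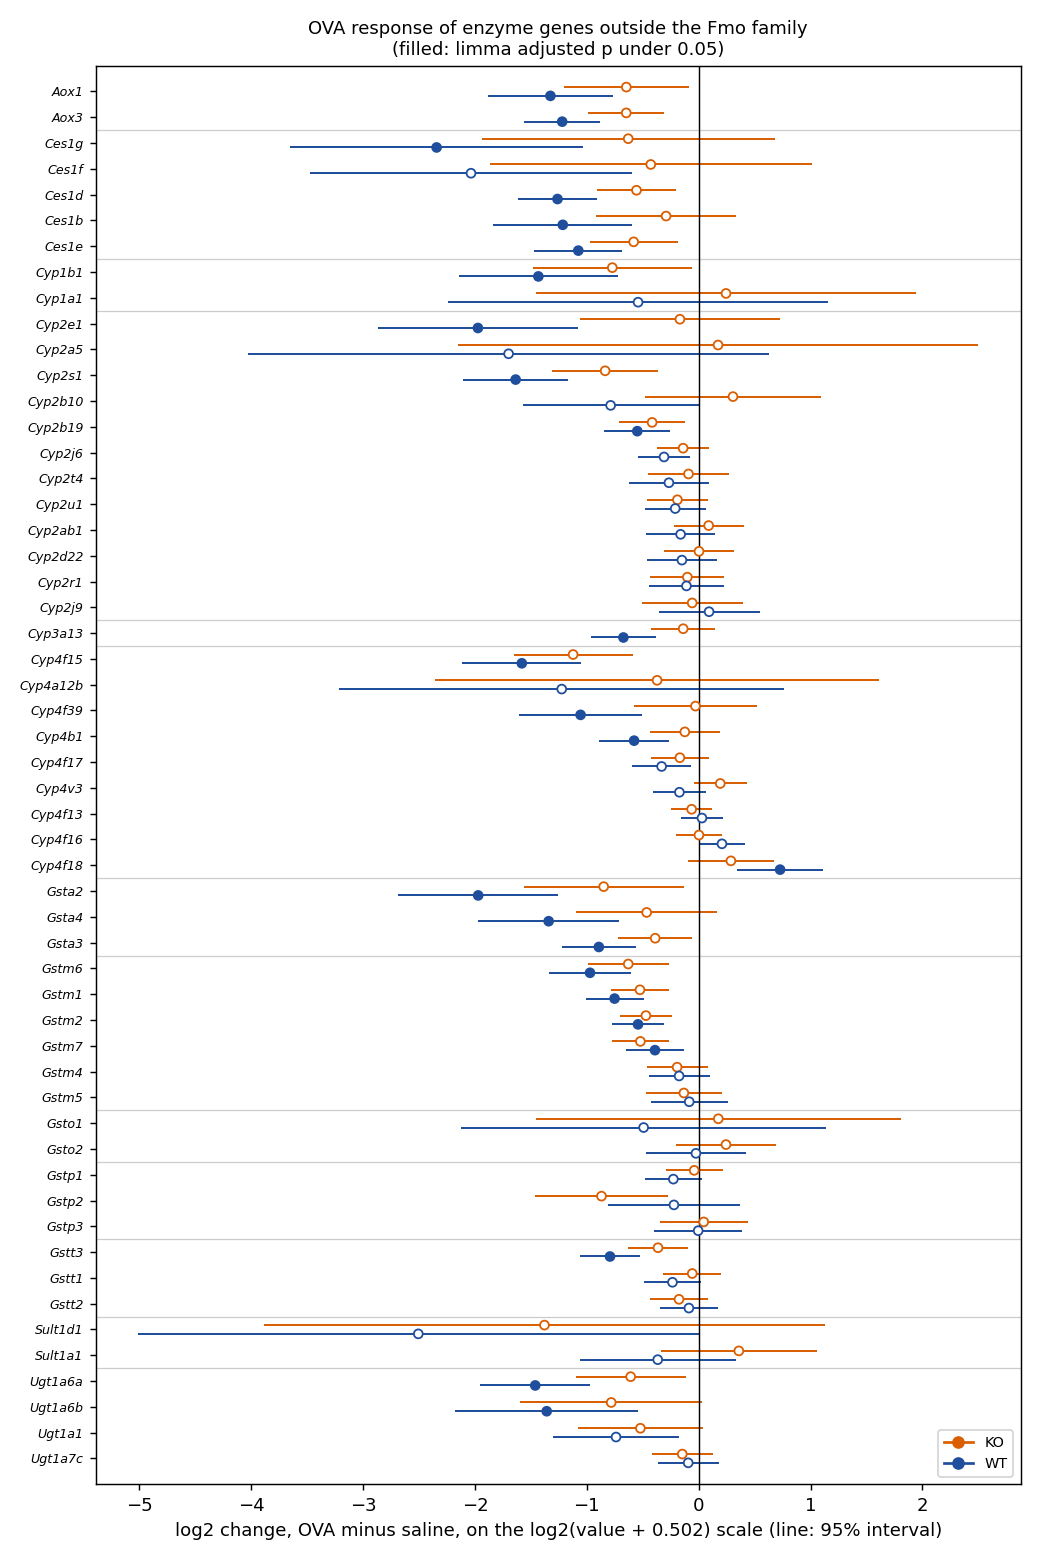
Log2 change after OVA (OVA minus saline) of each member outside the Fmo family in KO and WT lungs, grouped by family, with 95% intervals as lines and filled points for limma adjusted p under 0.05. WT points of the members that fell are filled to the left of 0 and Cyp4f18 to the right, and no KO point is filled.

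Both aldehyde oxidases, molybdenum enzymes that oxidize aldehydes and nitrogen heterocycles, fell. Aox3 (ENSMUSG00000064294, chr1:58113130-58200698 on GRCm38) read 65.0, 98.1, 92.9 and 117 in OVA KO lungs, against 152, 142 and 137 in saline KO lungs. WT libraries held 49.2, 56.1, 62.8 and 48.8 in OVA WT lungs, against 112, 134 and 134 in saline WT lungs. Neither pair of groups overlapped, and the log2 change was -1.22 in WT (SE 0.16, adjusted p = 0.00053). Aox1, its neighbour at chr1:58029931-58106413, read 26.5, 38.9, 33.1 and 39.0 in OVA KO lungs, against 51.4, 56.2 and 52.9 in saline KO lungs. The WT values were 24.9, 18.8, 27.8 and 24.2 in OVA WT lungs, against 41.1, 48.7 and 108 in saline WT lungs. Again the groups did not overlap, and the log2 change in WT was -1.33 (SE 0.26, adjusted p = 0.0059) and -0.90 without saline WT 3 (adjusted p = 0.0085).

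The flavin monooxygenases oxidize soft nitrogen and sulfur centres. Fmo2, the main flavin monooxygenase of the lung, averaged 820 ± 207 in OVA KO (SD, n = 4), 791 ± 82.5 in saline KO (n = 3), 708 ± 187 in OVA WT (n = 4) and 783 ± 140 in saline WT (n = 3), and the 95% interval of its log2 change in WT ran from -0.66 to 0.32. For Fmo1 that interval was -0.22 to 0.45.

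The Ces1 carboxylesterases, which cleave ester drugs and lipids, lie side by side on chromosome 8 (chr8:93056728-93337308), and 4 of 5 fell. Ces1d (ENSMUSG00000056973), also a triglyceride hydrolase, read 327, 436, 424 and 532 in OVA KO lungs, against 656, 574 and 642 in saline KO lungs. In wild type it read 283, 211, 319 and 274 in OVA WT lungs, against 595, 603 and 751 in saline WT lungs. The groups stood apart in both genotypes, and the mean in OVA WT was 41.9% of that in saline WT (log2 change -1.26, SE 0.16, adjusted p = 0.00052). Ces1e followed with a log2 change of -1.08 (SE 0.18, adjusted p = 0.0023). Ces1g read 0.952, 0.866, 1.30 and 1.18 in OVA WT lungs, against 3.27, 2.90 and 38.6 in saline WT lungs. Its log2 change was -2.34 (SE 0.61, adjusted p = 0.025) and -1.19 (adjusted p = 0.0035) without saline WT 3, and the call was lost without OVA WT 1. Ces1b (-1.21, adjusted p = 0.017) no longer passed with saline WT 3 left out (-0.81, adjusted p = 0.061), and Ces1f (-2.04, SE 0.67, adjusted p = 0.065, and -1.21 without saline WT 3) did not pass. The Ces1 genes are near copies of each other, so that reads of an abundant member could be counted for another.

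**Figure D2:**
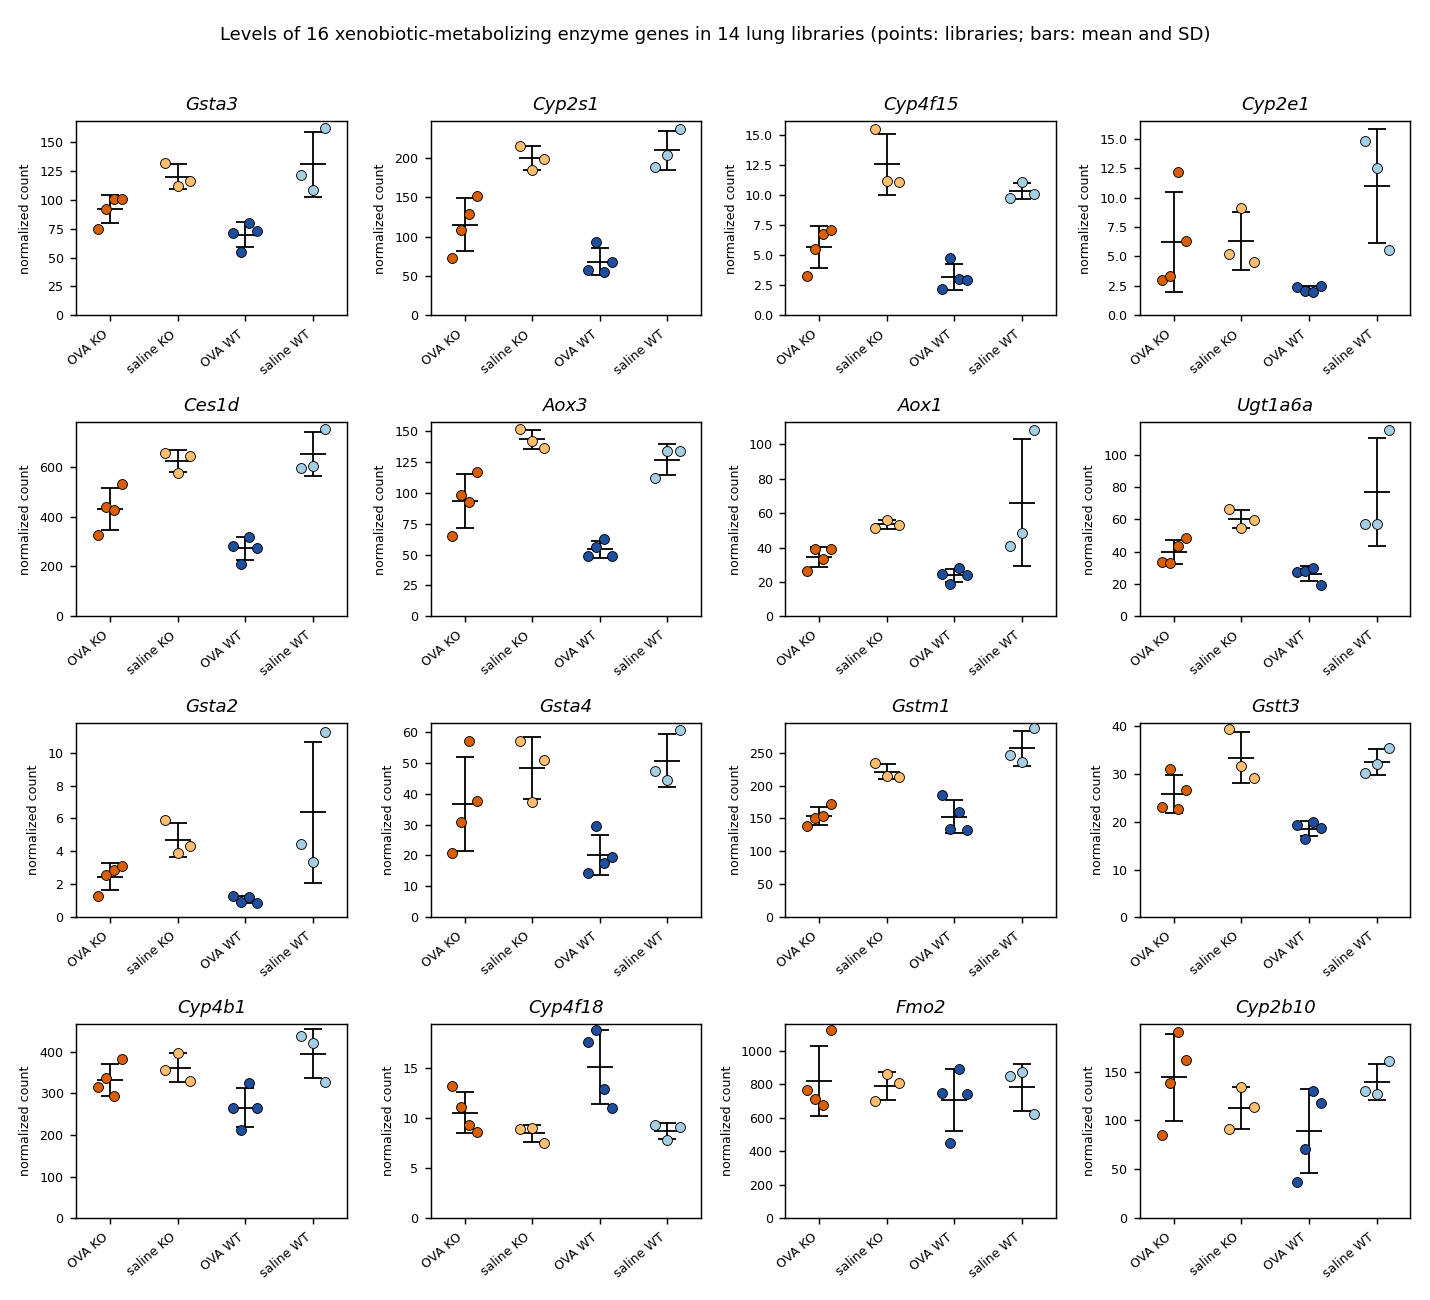
Normalized count (vertical axes, from 0) of named members in each library of the OVA KO, saline KO, OVA WT and saline WT groups, with points for libraries and bars for the mean and SD. Cyp2s1, Ces1d and Aox3 show no overlap between OVA WT and saline WT, with the OVA KO mean in between, whereas for Fmo2 and Cyp2b10 these groups overlap.

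Among the P450s, which oxidize their substrates with electrons from the reductase POR, 8 of 24 fell and 1 rose. Cyp2s1 (ENSMUSG00000040703), a P450 of the airway epithelium that dioxin induces, read 72.8, 108, 128 and 152 in OVA KO lungs, against 216, 185 and 198 in saline KO lungs. WT libraries held 57.3, 92.6, 55.2 and 67.7 in OVA WT lungs, against 189, 203 and 237 in saline WT lungs. The groups did not overlap in either genotype, and the log2 change in WT was -1.64 (SE 0.22, adjusted p = 0.00063). An annotated antisense gene, Gm26707, overlaps its exons, and whether the counts used strand is not given in the sources used here. Cyp2e1, which oxidizes ethanol and small solvents, read 2.99, 3.33, 12.2 and 6.27 in OVA KO lungs, against 5.24, 9.13 and 4.56 in saline KO lungs. The WT values were 2.39, 2.04, 1.95 and 2.48 in OVA WT lungs, against 14.8, 12.5 and 5.54 in saline WT lungs. The groups did not overlap in WT (log2 change -1.97, SE 0.41, adjusted p = 0.0087) and overlapped in KO. Cyp2b19 (log2 change -0.55, adjusted p = 0.02), which averaged under 1 normalized count, lost its call without saline WT 2 or saline WT 3. The remaining 9 Cyp2 genes did not pass. Cyp2b10, a target of the constitutive androstane receptor, read 85.0, 138, 191 and 162 in OVA KO lungs, against 91.2, 134 and 114 in saline KO lungs. Wild-type lungs gave 37.4, 70.9, 130 and 118 in OVA WT lungs, against 130, 127 and 160 in saline WT lungs, with a log2 change in WT of -0.79 (95% interval -1.57 to -0.00, adjusted p = 0.19). For Cyp2d22 the interval in WT was -0.46 to 0.16.

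Within Cyp4, whose members hydroxylate fatty acids at their far end, 3 of 9 members fell and 1 rose. Cyp4f15 read 3.23, 5.47, 6.78 and 7.05 in OVA KO lungs, against 15.4, 11.1 and 11.04 in saline KO lungs. In wild type it read 2.21, 4.75, 2.99 and 2.91 in OVA WT lungs, against 9.77, 11.04 and 10.1 in saline WT lungs. It fell in WT (log2 change -1.58, SE 0.25, adjusted p = 0.0014), and the groups did not overlap in either genotype. Of the 5 Cyp4f members in its cluster (chr17:32452723-32947402), Cyp4f39 fell too (-1.06, adjusted p = 0.018; lost without saline WT 1 or saline WT 3), whereas Cyp4f13 had a log2 change of 0.03 (95% interval -0.16 to 0.21, adjusted p = 0.88). Cyp4b1, a P450 typical of the lung, averaged 266 ± 46.2 in OVA WT (SD, n = 4), against 396 ± 58.6 in saline WT (n = 3), and fell by 0.58 on the log2 scale (SE 0.14, adjusted p = 0.021; lost without saline WT 1 or saline WT 2). Cyp4f18, which inactivates leukotrienes in myeloid cells and lies apart on chromosome 8, was the 1 member that rose. Antisense exons of Zfp961 overlap its exons, which matters if counting ignored strand. Cyp4f18 read 13.2, 11.2, 9.31 and 8.58 in OVA KO lungs, against 8.93, 8.99 and 7.48 in saline KO lungs. WT libraries held 17.6, 18.8, 12.9 and 11.04 in OVA WT lungs, against 9.27, 7.80 and 9.11 in saline WT lungs. Its log2 change in WT was 0.73 (SE 0.18, adjusted p = 0.02) and the call was lost without OVA WT 1, saline WT 2 or saline WT 3. Macrophage markers moved the same way: 7 of 8 rose in WT, and their sum was 508 to 1289 in OVA KO, against 317 to 413 in saline KO, and 1326 to 2154 in OVA WT, against 278 to 396 in saline WT. Their part in the Cyp4f18 result was not tested.

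Cyp3a13, the only Cyp3 member and the mouse kin of the main drug-oxidizing P450 of human liver, fell in WT by 0.67 on the log2 scale (SE 0.13, adjusted p = 0.0063), with 3.00, 3.32, 4.17 and 3.55 in OVA WT lungs, against 5.10, 5.61 and 7.00 in saline WT lungs. Of the Cyp1 pair, which oxidize aromatic hydrocarbons under control of AhR, Cyp1b1 fell (-1.43, SE 0.33, adjusted p = 0.014; lost without saline WT 2 or saline WT 3). Cyp1a1 read 21.4, 23.2, 30.03 and 11.6 in OVA WT lungs, against 7.58, 17.02 and 200 in saline WT lungs, and its log2 change of -0.54 (95% interval -2.24 to 1.16, adjusted p = 0.72) stands beside that spread, saline WT 3 alone lying above the OVA WT libraries. Without saline WT 3 the direction turned, with a log2 change of 0.82 (adjusted p = 0.27).

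The glutathione S-transferases, which couple electrophiles to glutathione, were counted by class. All 3 alpha-class members fell, as did 4 of 6 mu-class and 1 of 3 theta-class members, and none of 3 pi-class or 2 omega-class members passed. Gsta2 read 1.27, 2.56, 2.87 and 3.12 in OVA KO lungs, against 5.88, 3.88 and 4.35 in saline KO lungs. The WT values were 1.27, 0.912, 1.22 and 0.850 in OVA WT lungs, against 4.44, 3.38 and 11.3 in saline WT lungs. The groups stood apart in both genotypes, and its log2 change was -1.97 in WT (SE 0.33, adjusted p = 0.0023), and -1.495 without saline WT 3. Gsta3, with the highest normalized count of its class, and Gsta4, which clears the lipid peroxidation product hydroxynonenal, fell by 0.89 (SE 0.15, adjusted p = 0.0026) and 1.34 (SE 0.29, adjusted p = 0.011) on the log2 scale, the second call being lost without saline WT 3 (adjusted p = 0.056).

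Gstm1, a broad-range conjugating enzyme, read 139, 150, 153 and 173 in OVA KO lungs, against 234, 215 and 214 in saline KO lungs. Wild-type lungs gave 186, 134, 160 and 132 in OVA WT lungs, against 246, 236 and 287 in saline WT lungs. The groups were separate in both genotypes and the OVA levels of KO and WT overlapped, with a log2 change in WT of -0.75 (SE 0.12, adjusted p = 0.0016). Gstm2 (-0.54, adjusted p = 0.0068), Gstm6 (-0.97, adjusted p = 0.0027) and Gstm7 (-0.39, adjusted p = 0.049) of the same cluster fell as well, although Gstm7 lost its call in 19 of 27 alternatives, among them the omission of any library but OVA KO 1 and OVA WT 3. Gstm4 and Gstm5 did not pass. Gstt3 read 23.1, 31.2, 22.7 and 26.7 in OVA KO lungs, against 39.5, 31.6 and 29.2 in saline KO lungs. In wild type it read 19.3, 16.4, 19.9 and 18.7 in OVA WT lungs, against 30.2, 32.1 and 35.5 in saline WT lungs. It fell in WT (log2 change -0.79, SE 0.12, adjusted p = 0.0014), whereas Gstt1, its neighbour, had a 95% interval of -0.49 to 0.02. An annotated gene on the same strand, Gm20441, overlaps exons of Gstt3. Gstp1, the main pi-class gene, had a log2 change of -0.23 (95% interval -0.48 to 0.03, adjusted p = 0.25). As the mu and pi genes are close copies, reads shared between them could be split by the counting.

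Of the transferases that attach glucuronic acid or sulfate, Ugt1a6a and Ugt1a6b, which act on phenols, fell. Ugt1a6a read 33.8, 33.1, 43.6 and 48.3 in OVA KO lungs, against 66.2, 54.9 and 59.4 in saline KO lungs. WT libraries held 27.6, 28.3, 29.8 and 19.6 in OVA WT lungs, against 57.4, 57.3 and 115 in saline WT lungs. Both pairs of groups stood apart, with a log2 change in WT of -1.46 (SE 0.23, adjusted p = 0.0014) and of -1.13 without saline WT 3 (adjusted p = 0.0045). The call for Ugt1a6b (-1.36, adjusted p = 0.034) was lost without any of saline WT 1, 2 or 3, OVA WT 1 or OVA WT 3. Ugt1a7c did not pass (95% interval -0.36 to 0.18). All 4 Ugt1 members share exons of 1 locus, so their reads cannot be fully told apart. Sult1a1, the main phenol sulfotransferase, had a log2 change of -0.37 (95% interval -1.06 to 0.33). For 18 of the 60 members, Fmo1, Gstp1, Gstt1, Cyp2d22 and Cyp4f13 among them, the 95% interval in WT lay within 0.5 of 0 on the log2 scale.

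Club cell markers moved with these falls, though Cyp2f2, Cbr2 and Aldh1a1 among them are themselves detoxification enzymes. All 7 fell in WT, with sums of 9784 to 22067 in OVA KO, against 27343 to 39607 in saline KO, and 6142 to 9993 in OVA WT, against 28061 to 34481 in saline WT. Of 8 ciliated cell markers 3 fell, of 8 alveolar type 2 markers 1 fell, and none of 6 alveolar type 1 or 6 endothelial markers passed in WT. Of 8 goblet cell markers 2 rose, and of 7 fibroblast markers 2 fell. Heart muscle genes were also lower: 9 of 10 fell, and their sum was 130 to 459 in OVA KO, against 307 to 615 in saline KO, and 52.4 to 157 in OVA WT, against 727 to 1189 in saline WT. Of 9 fat genes 4 fell, with sums of 71.5 to 364 in OVA KO, against 115 to 189 in saline KO, and 68.9 to 119 in OVA WT, against 173 to 301 in saline WT. In bulk tissue, fewer cells of a type and less RNA per cell cannot be told apart, and the part of these markers in the enzyme results was not tested.

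The same comparison in knockout lungs shows the same schedule without MCEMP1. None of the 60 members passed the threshold in limma (0.377% of all genes were called), while at an unadjusted p under 0.05 there were 18 lower (30% of the members, against 6.97% of all genes) and 0 higher. The smallest adjusted p was 0.074, for Cyp4f15 (log2 change -1.12, SE 0.25). The groups did not overlap for 17 members, all lower in OVA KO (7.07% of all genes were lower without overlap), and the median log2 change was -0.17, against -0.01 over all genes. All 25 genes that fell in WT had a negative log2 change in KO, with a median of -0.56 in KO and -1.22 in WT, 24 of them were smaller in size in KO (Gstm7 was not), and 16 of the 25 did not overlap between OVA KO and saline KO. As these genes were picked by the WT test, the comparison of their sizes describes them and is no test of the genotypes. In the mu class, the log2 change in KO was -0.53 for Gstm1 (SE 0.12, adjusted p = 0.08), -0.47 for Gstm2 (SE 0.11, adjusted p = 0.084) and -0.52 for Gstm7 (SE 0.12, adjusted p = 0.08). It was -0.84 for Cyp2s1 (SE 0.22, adjusted p = 0.13). For Cyp2e1 (-0.17, SE 0.41), Cyp4f39 (-0.03, SE 0.25) and Cyp3a13 (-0.14, SE 0.13) it lay within its SE or close to it.

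Among the markers in KO, 2 of 8 goblet cell genes rose and 2 of 7 fibroblast genes fell after OVA, and none of the club cell, macrophage, heart muscle or fat genes passed. OVA KO libraries differed among themselves. Set against the mean of saline KO, the 25 genes had medians of 49.5% in OVA KO 1, 64.1% in OVA KO 2, 72.2% in OVA KO 3 and 76.4% in OVA KO 4, and against the mean of saline WT 37.6%, 44.3%, 38.9% and 40.5% in OVA WT 1 to 4. OVA KO 1 was the lowest of its group for 17 of the 25. Its sum of club cell markers (9784) was the lowest of the group. Its sum of macrophage markers (1289) was the highest, with OVA KO 3 close to it (1267). The part of these markers in its enzyme levels was not tested. The number of members called in KO moved with the processing. With array weights, set by how closely the values of a library followed its group, 10 were lower (1.9% of all genes). There were 4 without OVA KO 3 and OVA WT 2 (1.42%) and 5 without these and saline WT 3 (0.722%), Cyp4f15 and Ces1e being called in each of the 3. Without OVA WT 1, OVA WT 2 or OVA KO 4, 1 or 2 members were lower, against 46, 88 and 124 of all genes in turn.

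**Figure D3:**
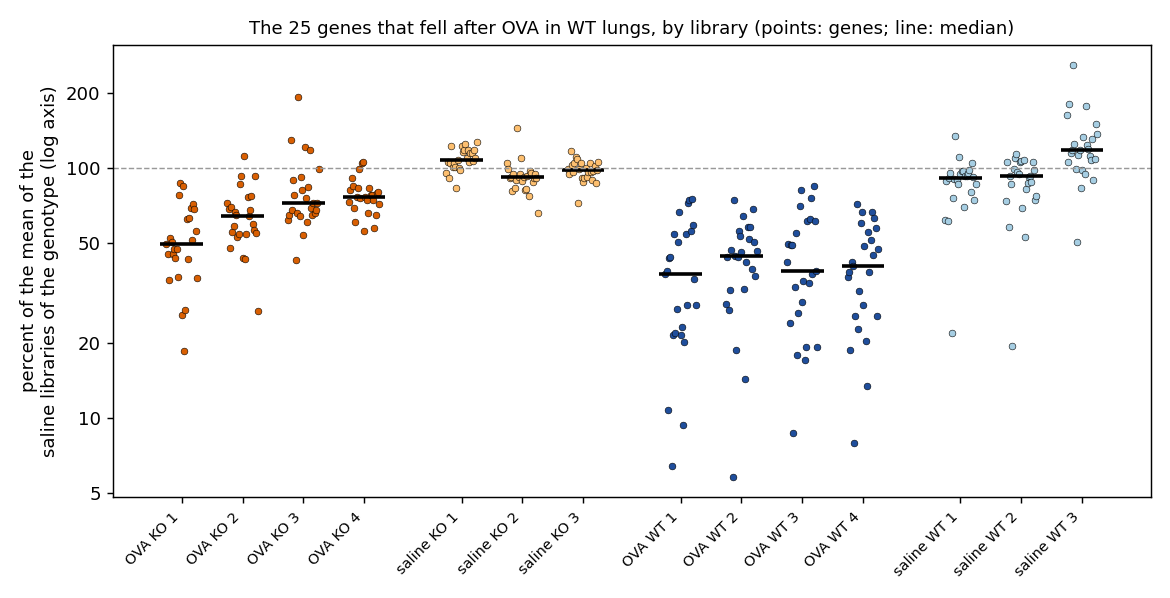
Level of each of the 25 genes that fell in WT (points) as a percent of the mean of the saline libraries of its genotype (log axis), by library, with the median as a line. Medians are 49.5% to 76.4% in OVA KO libraries and 37.6% to 44.3% in OVA WT libraries.

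The direct comparison of knockout with wild-type lungs after OVA shares its OVA libraries with both comparisons above. Aox3 was higher in OVA KO (log2 difference 0.75, SE 0.15, adjusted p = 0.045), the only member of 60 to pass (0.184% of all genes were higher), and at an unadjusted p under 0.05 there were 17 higher (28.3%, against 8.59% of all genes) and 3 lower (5%, against 9.19%). All 4 OVA KO libraries (65.0 to 117) lay above all OVA WT libraries (48.8 to 62.8) for Aox3. The call was lost in 12 of 14 omissions of 1 library, kept only without OVA KO 1 or OVA WT 3, and the adjusted p ranged from 0.0023 to 0.14 over the 14. Groups did not overlap for 8 members, all higher in OVA KO (3.09% of all genes): Aox3, Ces1d, Ces1g, Cyp2e1, Cyp3a13, Cyp4v3, Gstt3 and Ugt1a6a. Ces1d had a log2 difference of 0.65 (SE 0.15, adjusted p = 0.079) and Cyp2s1 of 0.73 (SE 0.20, adjusted p = 0.11). Without OVA KO 1, 8 members were higher (2.39% of all genes), among them Aox3 (0.92, adjusted p = 0.0023), Cyp2s1 (0.94), Ces1d (0.78), Cyp4f15 (0.94), Cyp3a13 (0.54), Gsta4 (1.04) and Gstt3 (0.51), those after Aox3 with adjusted p of 0.013 to 0.039. Gstm1 (0.02, SE 0.11, adjusted p = 0.95) and Gstm2 (-0.03, SE 0.10, adjusted p = 0.9) were among those with the smallest differences.

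After saline, 0 of the 60 members differed between KO and WT in limma (0.0832% of all genes were called), with 1 lower (Cyp4f39; 1.68% of all genes) and 0 higher at an unadjusted p under 0.05, and a median log2 difference of -0.07. The test of whether KO and WT differed in their change after OVA also passed for none of the 60 (0.00438% of all genes), the smallest adjusted p being 0.64. At an unadjusted p under 0.05 there were 13 members with a higher value (a less negative change in KO; 21.7%, against 3.76% of all genes) and 0 with a lower one, and the median difference was 0.31, against -0.00 over all genes. The largest of these was Cyp2e1 at 1.81 (SE 0.59, adjusted p = 0.64), and Ces1d had 0.71 (95% interval 0.21 to 1.20, adjusted p = 0.64). In saline WT 1, saline KO 2 and OVA KO 3, Cyp2e1 (14.8, 9.13 and 12.2) and the sum of fat genes (301, 189 and 364) were both highest of their group. In OVA WT the highest library was OVA WT 4 for Cyp2e1 and OVA WT 2 for the fat genes. The part of fat genes in the Cyp2e1 result was not tested. Without saline WT 3 the median difference of the members was 0.29, and without OVA KO 3, OVA WT 2 and saline WT 3 it was 0.18. Leaving out saline WT 3 alone moved Gsta2 from 1.12 to 0.65, Ugt1a6a from 0.85 to 0.52 and Ces1d from 0.71 to 0.60. It moved Cyp2e1 from 1.81 to 2.21 and Cyp4b1 from 0.45 to 0.58. A difference between the genotypes in their OVA response was not shown for any single member.

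Saline WT 3 stood apart from saline WT 1 and saline WT 2 in these families. Cyp1a1, the classic AhR target, read 200 in saline WT 3, against 7.58 and 17.02 in the other saline WT libraries and at most 30.5 in any other library, which ranked 1 of all 22828 genes by its excess on the log2 scale. Ces1g (38.6, against 3.27 and 2.90) ranked 2 and Ces1f (45.9, against 8.72 and 6.97) ranked 7. In all 7 of 60 members (11.7%, against 1.16% of all genes) were at least 2-fold above the higher of the other 2, the rest being Gsta2 (11.3, against 4.44 and 3.38), Ces1b (2.74, against 0.930 and 0.886), Aox1 (108, against 41.1 and 48.7) and Ugt1a6a (115, against 57.4 and 57.3). The xenobiotic response core was in 3 of the 6 of these with a promoter in the table, those of Cyp1a1, Gsta2 and Aox1 shown above. The antioxidant response element was in 0. Over all promoters the shares were 28.4% and 10.2%. Cyp1b1, also under control of AhR, read 20.6 in saline WT 3, against 12.6 and 16.4 in saline WT 1 and saline WT 2. The regulator Tiparp read 36.4, against 35.3 and 39.7, and the regulator Ahrr, of low counts, 0.375, against 0.266 and 0.380. The part of AhR or NRF2 in this library was not tested.

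Outside the families, NRF2 target and glutathione genes were high in the same library. Nqo1, a quinone reductase, read 20.3 in saline WT 3, against 4.17 and 3.86, Gpx2 40.5, against 16.9 and 16.4, and 3 of 12 such genes were at least 2-fold above the others and 8 of 12 highest of all 14 libraries. Without saline WT 3, 18 of the 25 calls in WT remained, while over all genes 935 of 22733 were lower, against 1700 of 22828 with all libraries. The genes that lost their calls were Ces1b, Cyp1b1, Cyp2b19, Cyp4f39, Gsta4, Gstm7 and Ugt1a6b, and Cyp4f18 (adjusted p = 0.051) among those that rose.

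OVA KO 3 and OVA WT 2 stood apart in another set of members. In both libraries 7 of 60 (11.7%, against 2.83% of all genes) were at least 1.5-fold above the next library of their group. Gsto1, which reduces dehydroascorbate, read 43.6, 58.6, 481 and 74.1 in OVA KO lungs, against 120, 68.6 and 78.9 in saline KO lungs. The WT values were 41.8, 240, 40.9 and 107 in OVA WT lungs, against 127, 76.0 and 157 in saline WT lungs. Only OVA KO 3 and OVA WT 2 lay above every saline library of their genotype. Cyp2a5, an oxidase of nicotine and coumarin, read 14.9, 5.30, 227 and 38.2 in OVA KO lungs, against 24.1, 27.1 and 26.7 in saline KO lungs. Wild-type lungs gave 9.56, 104, 8.54 and 28.9 in OVA WT lungs, against 71.6, 43.7 and 130 in saline WT lungs. Here OVA KO 3 again lay far above its group, and OVA WT 2 within the saline WT range. Sult1d1, which sulfonates catecholamines, read 2.08, 3.27, 70.4 and 8.98 in OVA KO lungs, against 30.3, 19.7 and 20.1 in saline KO lungs. In wild type it read 1.02, 37.1, 1.14 and 6.03 in OVA WT lungs, against 38.6, 19.7 and 28.1 in saline WT lungs. In all 3 genes the OVA groups overlapped the saline groups. The others were Cyp4a12b (13.7 and 9.55 in OVA KO 3 and OVA WT 2), Fmo6 (1.67 and 1.63), Ces1f (18.6 and 6.29) and Gsta4 (56.9 and 29.5). These were the 2 libraries with the highest sums of goblet cell genes (2283 and 1444). Their sums of ciliated cell genes (544 and 438) were also the highest of their OVA groups. The other libraries had 231 to 377 in OVA KO and 239 to 294 in OVA WT. OVA KO 3 had the highest sum of fat genes too (364). The part of these markers was not tested.

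With OVA KO 3 and OVA WT 2 left out, 28 members were lower in OVA WT. Over all genes the calls rose as well, with 2328 of 22576 lower, against 1700 of 22828 with all libraries. Sult1d1 (-3.48, adjusted p = 0.0019), Cyp2a5 (-2.43, adjusted p = 0.034), Cyp4a12b (-2.05, adjusted p = 0.0036), Ces1f (-2.34, adjusted p = 0.015) and Fmo6 (-1.16, adjusted p = 0.018) joined, while Ces1g and Gstm7 lost their calls. With all 14 libraries Sult1d1 had a log2 change in WT of -2.51 (95% interval -5.01 to -0.00, adjusted p = 0.19) and Cyp2a5 of -1.70 (95% interval -4.03 to 0.63, adjusted p = 0.35).

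**Figure D4:**
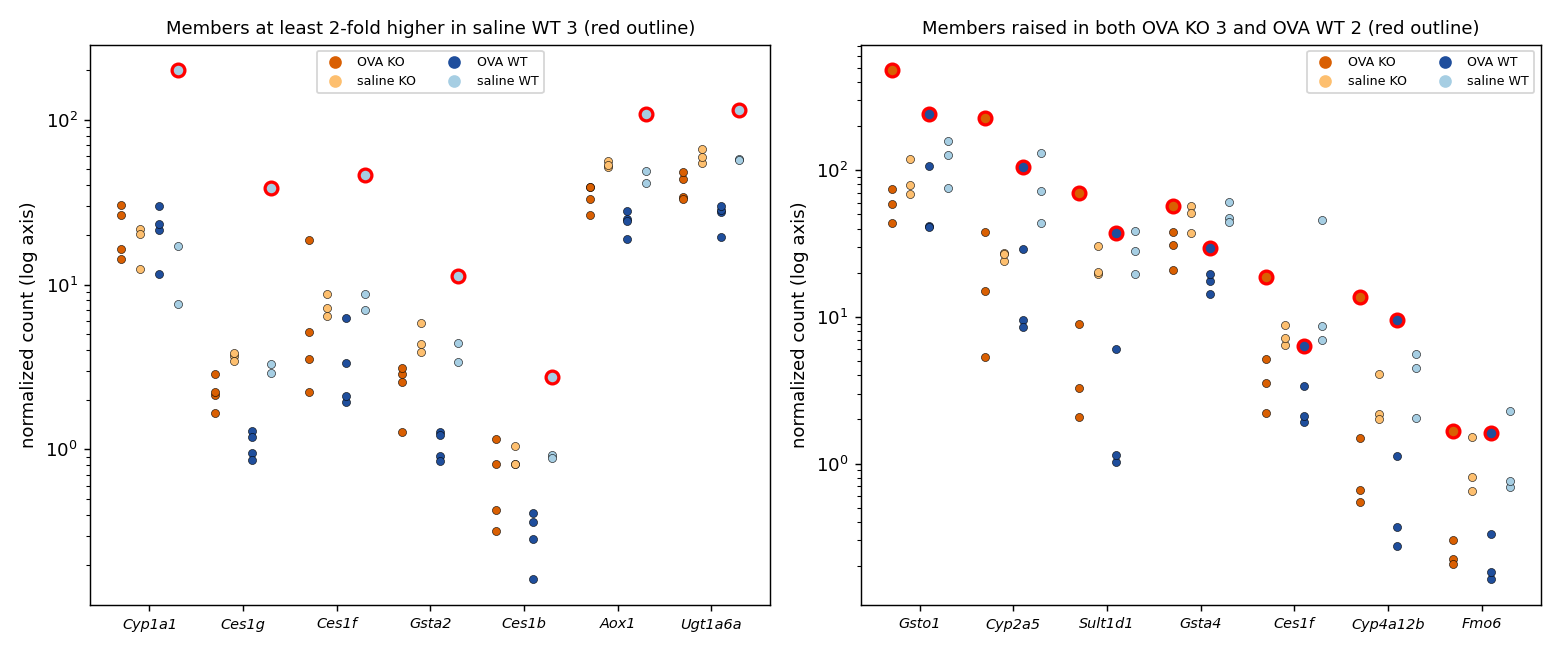
Normalized counts (log axes) of the 7 members at least 2-fold higher in saline WT 3 (left) and of the 7 members raised in both OVA KO 3 and OVA WT 2 (right), with 1 point per library, coloured by group, and red outlines on the libraries named. Cyp1a1 reaches 200 in saline WT 3 and Gsto1 reaches 481 in OVA KO 3 and 240 in OVA WT 2.

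Genes that work with these families were read from 4 lists. Of 17 regulators and redox partners, 2 fell in WT and 0 rose: Por, the electron donor of the P450s, read 117, 147, 166 and 245 in OVA KO lungs, against 267, 252 and 260 in saline KO lungs. WT libraries held 90.4, 112, 143 and 115 in OVA WT lungs, against 243, 267 and 220 in saline WT lungs. Groups stood apart in both genotypes (log2 change in WT -1.09, SE 0.20, adjusted p = 0.004), and Cyb5a, another electron donor, fell too (-0.63, adjusted p = 0.0044). Ahr (0.28, adjusted p = 0.23) and the NRF2 gene Nfe2l2 (-0.07, adjusted p = 0.71) did not pass. Cyb5r3, with the highest normalized count of this list, had a log2 change of 0.27, and the median of the list was -0.01 in WT. Without OVA KO 3 and OVA WT 2, 4 genes of this list were lower in OVA WT and 1 was higher (Cyb5r3, log2 change 0.41, adjusted p = 0.0049).

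Of 12 NRF2 target and glutathione genes 6 fell in WT and 0 rose (median -0.38), with Nqo1 at -1.49 (adjusted p = 0.03) and Osgin1 at -1.001 (adjusted p = 0.0057), and Gclc, the catalytic subunit of glutathione synthesis, at -0.17 (adjusted p = 0.68). Without saline WT 3, 2 of the 12 were lower (Nqo1 at -0.76, adjusted p = 0.021, and Osgin1 at -0.79, adjusted p = 0.03) and 1 was higher (Hmox1, the heme oxygenase, at 0.95, adjusted p = 0.028), with a median of -0.15. Gpx2, a glutathione peroxidase, had a log2 change of -1.24 (adjusted p = 0.039) and, without saline WT 3, of -0.82 (adjusted p = 0.17), and Gclc then stood at 0.18 (adjusted p = 0.47). Nqo1 also lost its call without OVA WT 1, OVA WT 2 or OVA WT 4 (adjusted p of 0.054 to 0.061). Of 37 tested genes for other detoxification enzymes 12 fell and 1 rose (median -0.31). Pon1, an esterase that clears organophosphates, read 12.9, 26.1, 26.6 and 36.8 in OVA KO lungs, against 74.3, 56.8 and 61.9 in saline KO lungs. The WT values were 8.24, 14.7, 11.99 and 6.74 in OVA WT lungs, against 62.5, 68.3 and 78.2 in saline WT lungs. It fell by 2.74 on the log2 scale in WT (SE 0.30, adjusted p = 0.00032), and the groups did not overlap in either genotype. Aldh3a1, an aldehyde dehydrogenase, fell by 2.69 (adjusted p = 0.011, and 0.053 without saline WT 3), and the carbonyl reductase Cbr2, which is also among the club cell markers, by 1.81 (adjusted p = 0.0008). Of 8 export pumps, Abcc3, which carries glucuronides out of cells, fell (-1.38, SE 0.19, adjusted p = 0.00066), Abcb1b rose (0.66, adjusted p = 0.04; lost in 7 of 14 omissions of 1 library, and 0.41, adjusted p = 0.16, without saline WT 3), and Abcc5, with the highest normalized count among them, had -0.11 (adjusted p = 0.69). In KO none of these lists had a gene past the threshold after OVA, with Pon1 at -1.40 (SE 0.30, adjusted p = 0.069) and Por at -0.67 (SE 0.20, adjusted p = 0.2). Without OVA KO 3 and OVA WT 2, 4 of the 37 genes for other detoxification enzymes were lower in OVA KO.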

How the data were processed

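Lung RNA libraries (14, poly(A)-selected) were sequenced by the authors on an Illumina NovaSeq, aligned with STAR to mm10 and normalized in Partek, per the submitters' processing notes. The deposited table holds normalized counts per gene, used here as a signal of unstated scaling. The STAR version, the normalization method, the gene annotation and whether counting used strand are not given in the sources used here. Columns named CO were read as the saline controls.

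Values were taken as log2(value + 0.502), the pseudocount being 0.5 ppm of the mean column total, for the 22828 of 24270 genes with 3 or more libraries at or above 0.2 ppm of their own total. limma 3.58.1 in R 4.3.3 was fitted to all 4 groups with moderated variances (trend and robust options) and 5 two-sided contrasts: OVA against saline in KO and in WT, KO against WT after OVA and after saline, and the difference between the OVA responses. P-values were Benjamini-Hochberg adjusted within each contrast, with a threshold of 0.05. The fit was tested on simulated data. Members and lists were chosen with earlier results of these data known. Named genes were the member of highest mean in each family, every member past the threshold, those nearest the mean of 0.5 and up to 4 genes of each pathway list (the highest mean and those past the threshold); others that are named were chosen after their values were seen, and some genes past the threshold are not reported here. Alternatives covered scaling, pseudocount, filter, variance model, library weights, the replicate block and omitted libraries.

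Gene positions came from GENCODE M21 (GRCm38) by Ensembl ID (60 of 60 matched), and promoters from RefSeq (GRCm38.p6), by symbol (49 of 60 matched). Same-strand exons of another gene overlapped 6 members and antisense exons 11. Which part of the lung and how many mice went into a library are not given in the sources used here.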

Additional observations from a re-analysis of the deposited data

Results flagged for a closer look

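Within each OVA group of 4 libraries, a library was singled out where its gap to the nearest other took up nearly the whole range of the group (Dixon's test at the 95% level), in 12 of 120 tests. A rate of about 1 in 20 would hold only for independent, normally distributed values. These tests share the same libraries, and 5 flags each fell in OVA KO 3 and OVA WT 2, so the count cannot be judged against that rate. Saline groups of 3 were too small for this test.

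OVA KO 3 stood highest for 5 members: Cyp2a5 at 227 (next library 38.2), Cyp4a12b at 13.7 (1.501), Fmo6 at 1.67 (0.300), Gsto1 at 481 (74.1) and Sult1d1 at 70.4 (8.98). OVA WT 2 stood highest for 4, of which 3 were the same genes: Cyp4a12b at 9.55 (1.14), Fmo6 at 1.63 (0.331) and Sult1d1 at 37.1 (6.03), and Gstp3 at 4.99 (2.91). OVA WT 2 was also lowest for Ugt1a7c at 3.85 (next 4.87). OVA KO 4 was lowest for Gstp1 at 44.6 (56.6), and OVA WT 4 was highest for Gstt2 at 18.03 (16.5).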

How the results depend on the processing

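Of the 27 member results past the threshold (26 in WT, and Aox3 between KO and WT after OVA), 16 were past it under all 27 alternatives, 11 were lost in at least 1, and none changed sign. In WT, 20 (only the groups compared in the fit) to 34 (equal column totals) members were lower over the alternatives other than omissions of 1 library, and the 1 higher became 0 with equal column totals and without OVA WT 2, OVA KO 3 and saline WT 3 together. Over all genes, 1224 of 21710 were lower with only the groups compared and 4340 of 22828 with equal column totals. In KO, the 0 members lower became 3 with equal column totals (0.377% of all genes) and 10 with array weights (1.9%). They became 4 without OVA WT 2 and OVA KO 3 (1.42%), and 5 without these and saline WT 3 (0.722%). Between KO and WT after OVA, the 1 member higher became 2 with equal column totals (0.442% of all genes) and 3 with array weights (0.548%). It became 0 with no variance trend, with only the groups compared, and without OVA WT 2 and OVA KO 3. The cause of these shifts was not tested. The joint omissions were chosen after the data were seen. Omitting 1 library at a time gave 18 to 26 lower and 0 to 1 higher in WT, 0 to 2 lower in KO, 0 to 8 higher in KO than in WT after OVA, and 0 to 0 in the other counts. Over all genes the same omissions gave 780 to 2034 lower in WT, 0 to 124 lower in KO and 13 to 545 higher in KO than in WT after OVA.

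With the replicate block 25 members were lower in WT, 24 of them shared, and 1 higher, and no other count changed. Same-numbered libraries did not deviate together (19 pairs, r -0.32 to 0.39, 5 over 0.1, and 2 of 14 libraries closest to their own number), so the numbers only name the samples. Members near 1 normalized count (Cyp2b19, Ces1b, Fmo6) rest on few reads.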
